A study of Mus musculus with 20 samples.

Results

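Hrk and 9 other genes of the Bcl2 family were examined in RNA-seq libraries of the neocortex and hippocampus. The 10 genes were chosen by name, as the rows whose symbol was Hrk, Bcl2, Bcl2l1, Bcl2l2, Bcl2l11, Mcl1, Bax, Bak1, Bid or Bmf, and all 10 were found among the 24421 genes in each of the 20 libraries. The libraries form 4 groups of 5, from cTKO and control mice at 3 months of age. In cTKO mice, App, Aplp1 and Aplp2 carry floxed alleles, and a Camk2a-Cre transgene deletes them after birth in excitatory neurons of the forebrain, so that other cells of the tissue keep the genes. Controls, labelled wild type, were littermates with the same floxed alleles and no Cre, and mice of both sexes on a C57BL/6J and 129 hybrid background were used, according to the methods of the study. Both regions were taken from 5 mice of each genotype, and p values measure the spread between these libraries, which the labels do not tie to separate animals.

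The Bcl2 family decides whether the outer mitochondrial membrane stays intact. Anti-apoptotic members (Bcl2, Bcl2l1, Bcl2l2 and Mcl1) bind and restrain the effectors Bax and Bak1, which form pores in that membrane when released. BH3-only members, here Hrk, Bcl2l11, Bid and Bmf, respond to different kinds of stress and either block the anti-apoptotic proteins or activate the effectors. Hrk, also called harakiri, is expressed mainly in the nervous system and is known for its rise in neurons deprived of trophic support, downstream of JNK signaling.

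Levels were computed as CPM, a gene's counts per 1000000 counts of its library after TMM scaling of the total. Total counts ranged from 12169474 to 24842764 in neocortical libraries and from 19552353 to 25331954 in hippocampal ones, where a floor of 3 counts corresponds to 0.118 to 0.247 CPM. All 10 genes were above this floor in every library. Within a region, no cTKO library reached the lowest control library for App, Aplp1 or Aplp2, the deleted genes, with log2 fold changes of -2.10, -1.92 and -1.60 in the neocortex and -1.78, -1.93 and -1.25 in the hippocampus. Defining markers of excitatory and inhibitory neurons, astrocytes, oligodendrocytes, microglia and endothelial cells were present in all groups. Of the 20 libraries, 2 stood apart. The sum of 8 markers of embryonic tissue, such as H19 and the embryonic globin Hbb-y, was 666 CPM in cTKO neocortex library 5 and 429 CPM in cTKO hippocampus library 4, whereas it was at most 5.78 CPM in the other 18. Of these markers, Hoxa9, Hoxc9 and Hoxc10 were at 0 counts in both libraries. The list of markers was written after the pattern in these libraries was known, so that their sum describes it and is no independent test. Results that rest on these libraries are given with and without them, a choice made after the data were seen, and the part of this RNA in a result was not tested.

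The first question was which members differed between cTKO mice and controls within each region. Hrk was lower in cTKO mice in both regions, and it was the 1 member of 10 that passed the threshold (FDR under 0.05) in either region. The study had reported Hrk as lower in both regions from these same libraries. It also measured the genes changed in both regions by quantitative RT-PCR in a different set of mice. Hrk was not among the genes that it named as short of significance there. The members were chosen with earlier results known, so that the call of Hrk is not independent of that choice. The FDR is the p value of edgeR's quasi-likelihood test after Benjamini-Hochberg adjustment over all genes tested. Of the 13843 genes tested in the neocortex, 26 passed, or 0.188%, and 0.101% were lower in cTKO mice. Of the 13702 genes tested in the hippocampus, 67 passed, or 0.489%, and 0.175% were lower. Hrk was the last of the 26 genes in the neocortex by p value and the 45th of 67 in the hippocampus.

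Hrk lies on chromosome 5, from 118164648 to 118189478 on the plus strand of GRCm38 (GENCODE M21), in 2 exons, and no other annotated gene overlaps it there. In control neocortex, its level in libraries 1 to 5 was 46.3, 44.1, 46.8, 52.9 and 42.9 CPM. In cTKO neocortex it was 39.3, 30.1, 34.0, 30.6 and 27.3 CPM. Every cTKO library was below every control library, and cTKO library 1 came nearest to the controls. The mean fell from 46.6 ± 3.86 to 32.3 ± 4.605 CPM (SD, n = 5 each), a log2 fold change of -0.52 (SE 0.094, 95% confidence interval -0.72 to -0.32, FDR 0.0458). A two-sided exact permutation test on log2 CPM gave p = 0.00794, the smallest that 5 libraries against 5 allow.

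In control hippocampus, Hrk was counted at 65.7, 76.9, 60.8, 88.0 and 94.5 CPM in libraries 1 to 5. In cTKO hippocampus it was at 53.8, 50.1, 43.2, 36.9 and 48.4 CPM. The groups again did not overlap, and the controls were more widely spread, with a coefficient of variation of 18.5% compared to 8.28% in control neocortex. The mean fell from 77.2 ± 14.3 to 46.5 ± 6.57 CPM (SD, n = 5 each), a log2 fold change of -0.73 (SE 0.13, 95% confidence interval -1.01 to -0.45, FDR 0.0271, exact permutation p = 0.00794). The decrease left Hrk at 0.697 of the control level in the neocortex, compared to 0.603 in the hippocampus. The difference between the decreases, tested as the interaction of region and genotype, was -0.20 on the log2 scale (95% confidence interval -0.56 to 0.15, FDR 0.9999). The interval includes 0 and a decrease larger in the hippocampus by up to 0.56.

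The lowest Hrk library of each cTKO group was the one with embryonic markers, at 27.3 CPM in the neocortex and 36.9 CPM in the hippocampus. Without that library, the neocortical log2 fold change was -0.48 (FDR 0.0308) and the hippocampal one -0.66 (FDR 0.0387), both past the threshold. The FDR also depends on the p values of all other genes, and 7 to 133 genes passed with 1 neocortical library left out. Without cTKO neocortex library 5, the p of Hrk in edgeR's quasi-likelihood test was 0.00017. It was smaller with all libraries, at 8.61e-05, although the FDR was then higher. The call was lost without some of the other libraries. In the neocortex, the FDR lay between 0.0876 and 0.146 without any 1 of the 5 controls or without cTKO library 2 or 4, where the log2 fold change was between -0.55 and -0.47. In the hippocampus, it lay between 0.0503 and 0.0981 without control library 1, 2, 4 or 5 or without cTKO library 2 or 3, with log2 fold changes between -0.78 and -0.65. With the replicate number as a block, Hrk missed the threshold in both regions (FDR 0.0655 for neocortex, 0.0554 for hippocampus), as it did for neocortex in the fit of all 20 libraries (FDR 0.106). The summed level of 7 markers of excitatory neurons, the cells in which Cre is active, was 10133 ± 454 CPM in control and 9203 ± 969 CPM in cTKO neocortex, and 11715 ± 628 and 10907 ± 842 CPM in the hippocampus. Its ranges overlapped between genotypes in each region (9549 to 10602 and 8347 to 10818 CPM in the neocortex, 10832 to 12229 and 9471 to 11690 CPM in the hippocampus), and its part in the difference in Hrk was not tested. Without the library with embryonic markers, the sum was 9358 ± 1045 CPM in cTKO neocortex and 11266 ± 294 CPM in cTKO hippocampus (SD, n = 4). Of the 7 markers, 0 passed in edgeR's quasi-likelihood test in either region. Before adjustment, 2 had a p under 0.05 in the neocortex and 3 in the hippocampus, where 1444 of 13843 and 1646 of 13702 genes did. The log2 fold change was positive for 5 of the markers in the neocortex and 3 in the hippocampus. Camk2a, the most abundant of them and the gene whose promoter drives Cre, was at 5887 CPM in control and 4702 CPM in cTKO neocortex (log2 fold change -0.32, FDR 0.162), whereas Slc17a7, a vesicular glutamate transporter, was at 0.21 (FDR 0.476). The sum of 6 markers of inhibitory neurons was 964 ± 57.3 and 1113 ± 120 CPM in the neocortex and 845 ± 77.6 and 938 ± 82.5 CPM in the hippocampus, with overlapping ranges, and its part was not tested either. For 5 markers of astrocytes, the sum was 1249 ± 88.4 and 1263 ± 161 CPM in the neocortex. In the hippocampus it was 2093 ± 197 CPM in control and 2848 ± 1198 CPM in cTKO libraries (ranges 1891 to 2394 and 1874 to 4802 CPM). Of these markers, 0 passed in either region, and their part was not tested. In whole tissue, fewer cells of a type and less RNA per cell cannot be told apart.

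**Figure D1:**
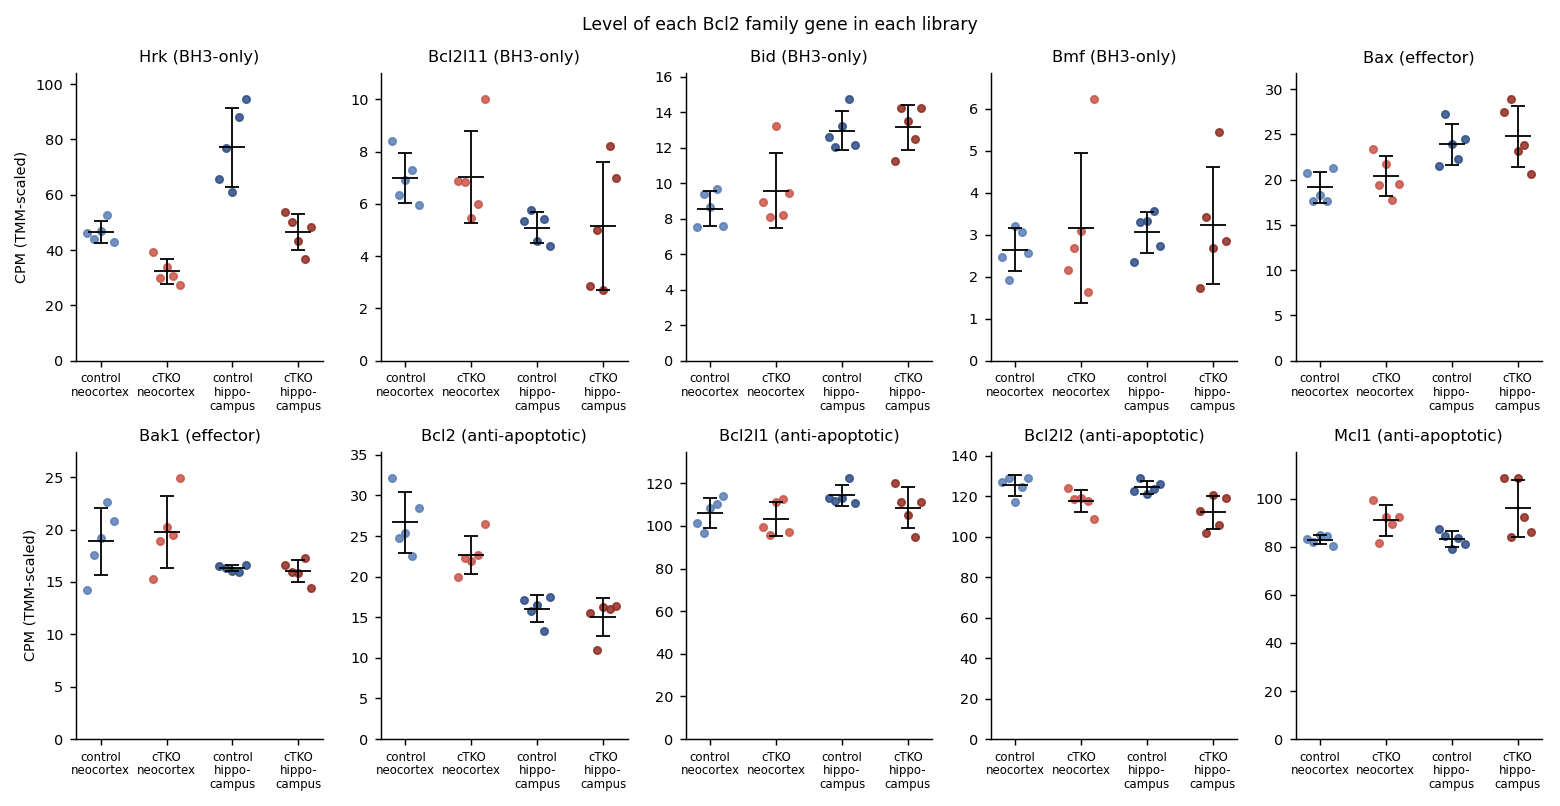
TMM-scaled CPM of each of the 10 genes in each library (points), by group, with the mean and SD as black bars and each axis from 0. Hrk was between 42.9 and 52.9 CPM in control neocortex and between 27.3 and 39.3 CPM in cTKO neocortex, and between 60.8 and 94.5 CPM in control and 36.9 and 53.8 CPM in cTKO hippocampus.

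The window around the start of Hrk is shown because Hrk is the 1 member whose level differed by genotype in both regions. RefSeq (GRCm38.p6) gives 1 start, with 250 bases before it and 50 after it at chr5:118169514-118169813 on the plus strand. This start, at 118169764, lies inside the span of Hrk in GENCODE M21, which begins at 118164648 and gave the exon length. The window therefore does not cover the GENCODE start. Of its 300 bases, 65.7% are G or C. Capitals mark the 1 match to the core of the cAMP response element, TGACG, which stands here on the opposite strand.

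Hrk: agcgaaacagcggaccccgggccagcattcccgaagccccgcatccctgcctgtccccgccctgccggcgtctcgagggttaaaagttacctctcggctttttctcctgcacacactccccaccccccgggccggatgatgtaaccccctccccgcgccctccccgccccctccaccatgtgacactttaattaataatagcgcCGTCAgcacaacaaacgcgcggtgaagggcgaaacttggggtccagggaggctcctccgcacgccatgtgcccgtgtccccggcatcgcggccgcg

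Motifs were searched on both strands. TGACG was found in 20.8% of 32851 such windows of mouse genes, and in windows of Bcl2, Bmf and Mcl1 beside that of Hrk among the members. The full element TGACGTCA (1.79% of windows), which contains this core, and the AP-1 element TGANTCA (7.81%) are not among these letters of Hrk. The E-box CANNTG was found in the window of Hrk and in 72.3% of all windows. These matches describe the sequence alone.

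The other BH3-only members gave no call between genotypes. Bcl2l11, which encodes Bim, was at 6.98 ± 0.945 CPM in control and 7.03 ± 1.76 CPM in cTKO neocortex, and at 5.09 ± 0.580 and 5.16 ± 2.45 CPM in the hippocampus (SD, n = 5 each). Bmf, which is held at the cytoskeleton in healthy cells, was the lowest member, at 2.64 ± 0.517 and 3.16 ± 1.79 CPM in the neocortex and 3.05 ± 0.496 and 3.22 ± 1.39 CPM in the hippocampus. For both genes the cTKO groups were more widely spread than the controls, and the means were close. The highest cTKO library was the one with embryonic markers in each case. Bmf was at 6.22 CPM in cTKO neocortex library 5, compared to 1.64 to 3.08 CPM in the other 4, and at 5.45 CPM in cTKO hippocampus library 4, compared to 1.72 to 3.42 CPM. Bcl2l11 was at 9.996 CPM in the former library, compared to 5.47 to 6.86 CPM, and at 8.22 CPM in the latter, compared to 2.72 to 6.99 CPM.

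Without these libraries, the signs of both genes turned. The log2 fold change of Bmf went from 0.25 to -0.14 in the neocortex and from 0.07 to -0.21 in the hippocampus. That of Bcl2l11 went from 0.01 to -0.15 and from 0.01 to -0.22. None of these values passed the threshold, with FDRs of 0.716 to 0.871 without these libraries, so that neither direction is given for Bmf or Bcl2l11.

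Bid, which caspase-8 cleaves to link death receptors to mitochondria, was at 8.57 ± 1.0 CPM in control and 9.58 ± 2.11 CPM in cTKO neocortex. In the hippocampus it was at 12.97 ± 1.09 and 13.2 ± 1.27 CPM. Its log2 fold changes were 0.17 (95% confidence interval -0.15 to 0.48) and 0.02 (-0.18 to 0.23), and the genotypes overlapped in both regions. The neocortical value was 0.029 without cTKO library 3, at 13.2 CPM, where the other 4 were at 8.08 to 9.48 CPM.

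Hrk made up most of the summed CPM of the 4 BH3-only members, a sum that is not scaled to exon length. It contributed 71.9 ± 0.619% of the summed CPM of the 4 BH3-only genes in control neocortex and 62.0 ± 6.54% in cTKO neocortex, and 78.2 ± 3.28% and 68.2 ± 6.71% in the hippocampus (SD, n = 5). The sum itself was 64.8 ± 5.24 and 52.1 ± 4.81 CPM in the neocortex and 98.3 ± 14.5 and 68.0 ± 5.11 CPM in the hippocampus. Without Hrk, the sum was 18.2 ± 1.46 CPM in control and 19.8 ± 3.95 CPM in cTKO neocortex, and 21.1 ± 1.64 and 21.5 ± 4.14 CPM in the hippocampus. The ranges of the sum without Hrk overlapped between genotypes in both regions. Per kilobase of exon, Bid was nearer to Hrk than in CPM. In cTKO neocortex, CPM per kilobase was 5.997 for Hrk, 4.38 for Bid, 1.02 for Bcl2l11 and 0.654 for Bmf. Without the libraries with embryonic markers, Hrk contributed 64.6 ± 3.34% in cTKO neocortex and 70.6 ± 4.56% in cTKO hippocampus, and the sum without Hrk was 18.3 ± 2.49 and 20.4 ± 3.71 CPM (SD, n = 4).

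The effectors did not pass the threshold in either region. Bax was at 19.1 ± 1.75 CPM in control and 20.3 ± 2.19 CPM in cTKO neocortex (log2 fold change 0.10, 95% confidence interval -0.10 to 0.30), and at 23.9 ± 2.24 and 24.8 ± 3.37 CPM in the hippocampus (0.05, -0.17 to 0.27). Bak1 was at 18.9 ± 3.20 and 19.8 ± 3.46 CPM in the neocortex (0.07, -0.23 to 0.38) and at 16.3 ± 0.298 and 16.0 ± 1.08 CPM in the hippocampus (-0.02, -0.18 to 0.14). The 5 control hippocampi spanned only 15.9 to 16.6 CPM for Bak1. In the annotation, Bax shares 22.1% of its exon bases with Gm45808 on the same strand, and Bak1 shares bases with Ggnbp1 on the opposite strand. Whether reads were counted by strand is not given in the sources used here, so these levels are less certain than that of Hrk.

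Among the anti-apoptotic genes, none passed the threshold for genotype. Bcl2, on chromosome 1, was at 32.2, 24.8, 25.3, 22.5 and 28.5 CPM in control neocortex libraries 1 to 5 and at 19.95, 22.3, 21.9, 22.6 and 26.5 CPM in cTKO neocortex. Of the 5 cTKO libraries, 3 were below the lowest control and the other 2 lay within the control range, so that the groups overlapped. The log2 fold change was -0.23 (95% confidence interval -0.46 to -0.0051, FDR 0.466). In the hippocampus, Bcl2 was at 16.0 ± 1.65 CPM in control and 15.1 ± 2.32 CPM in cTKO libraries, and without cTKO library 2, at 10.9 CPM, the log2 fold change of -0.09 became 0.0041.

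Mcl1, which encodes a short-lived protein, was at 83.4, 82.3, 84.8, 84.5 and 80.4 CPM in control neocortex and at 99.4, 81.5, 92.6, 89.5 and 92.3 CPM in cTKO neocortex. In the hippocampus, it was at 87.6, 84.6, 79.2, 83.9 and 81.4 CPM in controls and at 109, 84.1, 109, 92.5 and 86.4 CPM in cTKO mice. In the neocortex, 4 of 5 cTKO libraries were above every control, whereas in the hippocampus 3 of 5 were. The log2 fold changes were 0.14 (95% confidence interval 0.01 to 0.27, FDR 0.432) and 0.21 (0.03 to 0.38, FDR 0.339), neither past the threshold.

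Bcl2l2, which encodes Bcl-w, was at 123, 129, 121, 123 and 126 CPM in control hippocampus and at 113, 102, 121, 106 and 119 CPM in cTKO hippocampus. The groups did not overlap, though the highest cTKO library and the lowest control were both at 121 CPM after rounding. The log2 fold change was -0.15 (95% confidence interval -0.28 to -0.02, FDR 0.345, exact permutation p = 0.00794). In the neocortex, it was -0.08 (-0.19 to 0.03, FDR 0.615), where control libraries had 125 ± 5.03 CPM and cTKO libraries 118 ± 5.56 CPM. Groups without overlap were thus seen for 1 of 10 members in the neocortex, where 2.36% of all genes had none, and for 2 of 10 in the hippocampus, where 3.13% had none. Bcl2l2 shares 14.6% of its exon bases with Gm20521 on the same strand.

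Bcl2l1, which encodes Bcl-xL, was at 106 ± 7.11 and 103 ± 8.01 CPM in control and cTKO neocortex and at 114 ± 4.75 and 109 ± 9.49 CPM in the hippocampus. Its log2 fold changes of -0.03 (95% confidence interval -0.17 to 0.11) and -0.07 (-0.22 to 0.07) were among the most narrowly bounded of the family. The sum of the 4 anti-apoptotic genes was 341 ± 7.80 and 335 ± 12.1 CPM in the neocortex and 338 ± 5.43 and 332 ± 22.8 CPM in the hippocampus, in controls and cTKO mice. Without the libraries with embryonic markers, it was 337 ± 12.5 CPM in cTKO neocortex and 338 ± 21.8 CPM in cTKO hippocampus (n = 4).

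**Figure D2:**
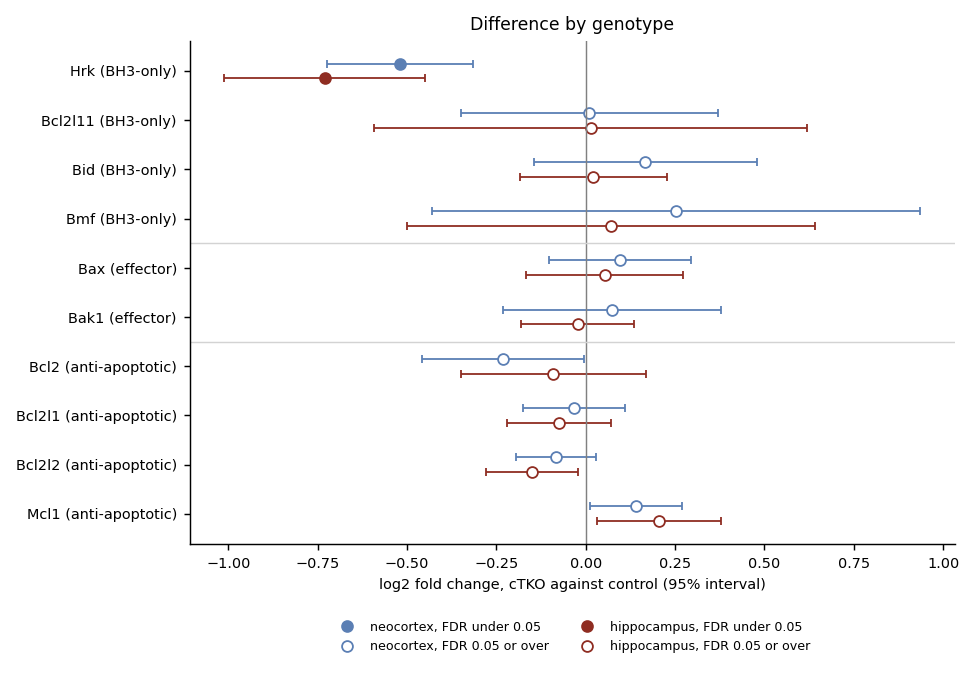
Log2 fold change of each gene in cTKO mice compared to controls, with its 95% confidence interval computed from edgeR's fit, in the neocortex (blue) and the hippocampus (dark red). Filled points have an FDR under 0.05, and Hrk, at -0.52 and -0.73, is the 1 gene filled in both regions.

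Over all 10 members, the log2 fold changes had a median of 0.04 in the neocortex (0.01 over all genes tested) and of -0.0045 in the hippocampus (0.0049). The 6 pro-apoptotic members had medians of 0.09 and 0.02, and the 4 anti-apoptotic members -0.06 and -0.08. Before adjustment, p was under 0.05 for 3 of 10 members in each region: Hrk, Bcl2 and Mcl1 in the neocortex, and Hrk, Bcl2l2 and Mcl1 in the hippocampus. The same held for 1444 of the 13843 genes tested in the neocortex and 1646 of the 13702 in the hippocampus. For the interaction of region and genotype, 0 of 10 members passed in edgeR's quasi-likelihood test, its likelihood ratio test and DESeq2. In the first, 8 of 14192 genes passed, or 0.0564%. Before adjustment, 0 of 10 members and 532 of all genes tested had a p under 0.05 in it.

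Levels were then compared between genes as CPM per kilobase of merged exons. Bcl2l2, Bcl2l1, Mcl1 and Bax held the first 4 places in every group, at 30.7 ± 1.23, 27.3 ± 1.83, 24.3 ± 0.529 and 22.1 ± 2.02 CPM per kilobase in control neocortex. Hrk was the 5th in control neocortex at 8.65 ± 0.717, in control hippocampus at 14.3 ± 2.65 and in cTKO hippocampus at 8.64 ± 1.22 CPM per kilobase. In cTKO neocortex it was the 6th, at 5.997 ± 0.856 CPM per kilobase, after Bak1 at 8.28 ± 1.45, and the ranges of these genes overlapped there. In control hippocampus, Hrk overlapped neither the gene above it, Mcl1, nor the one below it, Bak1. Bid, Bcl2, Bcl2l11 and Bmf followed in this order in each group, and Bmf was between 0.547 and 0.667 CPM per kilobase. Among the first 4 genes, neighbours overlapped in the range of their libraries in every group, except Bcl2l1 and Mcl1 in control neocortex. Their order thus differed between groups. In cTKO hippocampus, Bax was first at 28.6 ± 3.89 and Bcl2l2 the 4th at 27.5 ± 2.01 CPM per kilobase. Bcl2l11 and Bmf overlapped in 3 groups but not in control neocortex.

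**Figure D3:**
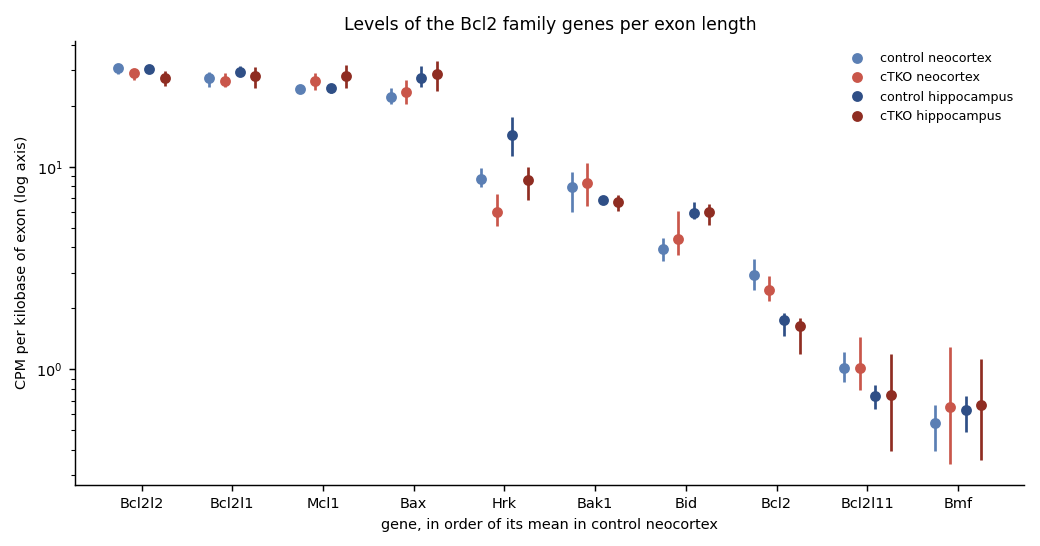
CPM per kilobase of exon of each gene on a log axis, as the mean (points) and the range over the 5 libraries (lines) of each group. Hrk stands between the 4 most abundant genes and Bid, at 14.3 in control hippocampus and 5.997 in cTKO neocortex, while Bcl2l11 and Bmf are lowest.

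The second question was how the family differed between regions in each genotype. Different RNA kits were used for neocortex and hippocampus according to the methods of the study, so that kit and region cannot be told apart. In controls, 5 of 10 members passed, where 59.1% of the 13832 genes tested did. This fit did not pair libraries by mouse. With the replicate number as a block, 8493 genes passed, the same 5 members among them. Hrk, Bid and Bax were higher in the hippocampus, as were 29.8% of all genes, and Bcl2 and Bcl2l11 were lower, as were 29.2%. The groups of these 5 members did not overlap, which was the case for 44.2% of all genes. The share of members called was thus near that of all genes.

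Hrk had a log2 fold change of 0.72 between control hippocampus and neocortex (SE 0.11, FDR 3.07e-05), and the lowest hippocampal library, at 60.8 CPM, was above the highest neocortical one, at 52.9 CPM. Bcl2 was the member with the largest difference, at 16.0 ± 1.65 CPM in the hippocampus and 26.7 ± 3.74 CPM in the neocortex (log2 fold change -0.74, SE 0.099, FDR 1.18e-05). All 5 hippocampal controls were between 13.4 and 17.5 CPM for Bcl2, below the lowest neocortical control at 22.5 CPM. Bid was at 8.57 ± 1.0 CPM in the neocortex and higher, at 12.97 ± 1.09 CPM, in the hippocampus, a log2 fold change of 0.60 (SE 0.0998, FDR 0.00011). Bax was higher by 0.31 (SE 0.082, FDR 0.00409) and Bcl2l11 lower, at -0.46 (SE 0.12, FDR 0.00440). Bcl2l11 did not pass when all 20 libraries were fitted together (FDR 0.118). Bcl2l1, Bcl2l2 and Mcl1 had log2 fold changes of 0.10, -0.02 and -0.00093, with intervals that reached at most 0.22.

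In cTKO mice, 3 of 10 members passed, where 41.3% of the 13846 genes tested did. Hrk and Bid were higher in the hippocampus, as were 20.2% of all genes, and Bcl2 was lower, as were 21.1%. Hrk had a log2 fold change of 0.51 (SE 0.12, FDR 0.00430). Its ranges overlapped in cTKO mice, since the hippocampal library at 36.9 CPM was below the neocortical one at 39.3 CPM. Bid was higher by 0.44 (SE 0.14, FDR 0.0244) and missed the threshold without cTKO neocortex library 1, 2 or 4 or cTKO hippocampus library 2 or 5, with FDRs between 0.0536 and 0.0692. Bcl2 was lower by 0.61 on the log2 scale, at 15.1 ± 2.32 compared to 22.7 ± 2.39 CPM (FDR 0.00180), and it was the 1 member of 10 without overlap, where 28.8% of all genes had none.

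Bax, at 0.27 (FDR 0.0684), and Bak1, at -0.32 (FDR 0.0521), missed the threshold of edgeR's quasi-likelihood test in cTKO mice. DESeq2 called Bak1 (FDR 0.0405) and not Bax, and the fit of all 20 libraries called both (FDR 0.0212 for Bax, 0.0346 for Bak1). Bax passed without cTKO neocortex library 1 (FDR 0.0484) or cTKO hippocampus library 5 (FDR 0.0299), and Bak1 passed without cTKO neocortex library 1 (FDR 0.0133). In controls, Bak1 at -0.21 (FDR 0.0942) passed without control neocortex library 1, at -0.31 (FDR 0.00444). Without both libraries with embryonic markers, the same count of 3 members passed in cTKO mice, and Hrk was higher in the hippocampus by 0.53 on the log2 scale (FDR 0.00273).

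**Figure D4:**
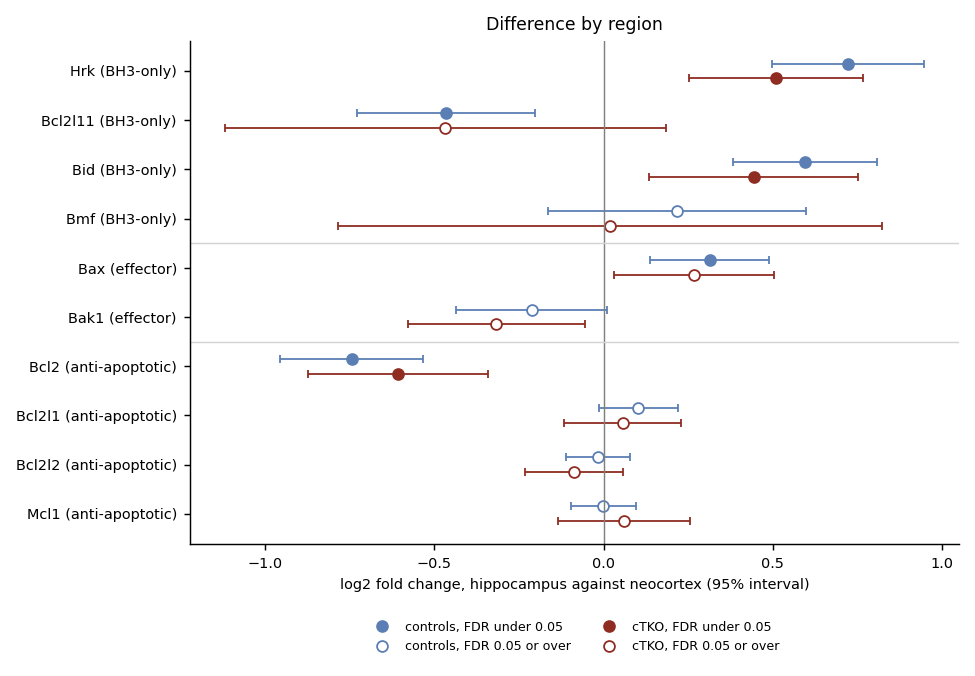
Log2 fold change of each gene in the hippocampus compared to the neocortex, with its 95% confidence interval computed from edgeR's fit, in controls (blue) and cTKO mice (dark red). Filled points have an FDR under 0.05. Hrk is at 0.72 and 0.51, Bid at 0.60 and 0.44, and Bcl2 at -0.74 and -0.61.

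Pairs of a pro- and an anti-apoptotic gene were described by their difference within a library, with no test. Log2 CPM of Bax minus that of Bcl2 was -0.47 ± 0.11 in control and -0.15 ± 0.27 in cTKO neocortex, and 0.57 ± 0.19 and 0.72 ± 0.41 in the hippocampus (SD, n = 5). In CPM, Bax was thus below Bcl2 in every control neocortical library and above it in every hippocampal one. Per kilobase of exon, the order in control neocortex was the reverse, with Bax at 22.1 and Bcl2 at 2.91 CPM. Log2 CPM of Hrk minus that of Bcl2l1, one of the proteins that Hrk binds, was -1.19 ± 0.14 and -1.68 ± 0.21 in the neocortex and -0.59 ± 0.26 and -1.23 ± 0.09 in the hippocampus. Without the libraries with embryonic markers, the cTKO values were -0.08 ± 0.25 and 0.76 ± 0.47 for Bax minus Bcl2 and -1.65 ± 0.23 and -1.20 ± 0.06 for Hrk minus Bcl2l1 (n = 4). These are differences of CPM and not of molecules, since the genes differ in length.

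Genes around the family were examined by list. Of 61 genes on 6 lists of the apoptosis pathway, 51 neocortical and 50 hippocampal genes were tested for genotype. In the neocortex, 1 of 51 passed in edgeR's quasi-likelihood test, where 0.188% of all genes did. Before adjustment, 6 of 51 had a p under 0.05 in it, as did 1444 of all 13843 genes. In the hippocampus, 0 of 50 passed in this test, where 0.489% of all genes did, and 0 in the exact and likelihood ratio tests. Before adjustment, 5 of 50 had a p under 0.05 in the quasi-likelihood test, as did 1646 of all 13702 genes. DESeq2 called 1 in the hippocampus, Vdac1.

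The 1 gene in the neocortex was Foxo3, a transcription factor that can activate BH3-only genes such as Bcl2l11. It fell from 56.1 ± 5.002 to 42.1 ± 2.61 CPM (SD, n = 5 each), a log2 fold change of -0.41 (SE 0.072, FDR 0.0390). Its groups did not overlap, as was the case for 2.36% of all genes. It missed the threshold without any 1 of the 5 control libraries or without cTKO library 1, 2 or 4, with FDRs between 0.0770 and 0.130 and log2 fold changes between -0.44 and -0.36. In the hippocampus, Foxo3 was at 31.5 and 28.1 CPM, with a log2 fold change of -0.16 (FDR 0.385). Of the 14 tested regulators of BH3-only genes, none other than Foxo3 passed in either region in edgeR's 3 tests or DESeq2, and before adjustment in edgeR's quasi-likelihood test p was under 0.05 for 2 in each region, Foxo3 included. Jun, the target of JNK that is known to act on Hrk, differed by -0.15 on the log2 scale in neocortical libraries (FDR 0.687) and by 0.10 in hippocampal ones (FDR 0.804), neither past the threshold, and the JNK genes Mapk8, Mapk9 and Mapk10 lay between -0.08 and 0.06 in both regions. Trp53, which encodes p53, was at 23.6 ± 1.19 CPM in control and 29.5 ± 5.15 CPM in cTKO hippocampus. Its groups did not overlap, as was the case for 3.13% of all genes, but it did not pass (log2 fold change 0.32, FDR 0.247). The study reported p53 as unchanged in both regions by RNA-seq and quantitative RT-PCR.

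Of 15 other Bcl2 family genes, 8 were tested for genotype. Bok, an effector-like member, had the smallest p in both regions. It was at 13.03 ± 1.18 CPM in control and 17.7 ± 3.77 CPM in cTKO neocortex (log2 fold change 0.45, FDR 0.223) and passed without cTKO library 5, one of those with embryonic markers (0.55, FDR 0.0200). In the hippocampus, Bok was at 34.1 ± 7.52 and 40.2 ± 8.42 CPM (0.24, FDR 0.638). The BH3-only genes Bbc3 and Pmaip1, which encode Puma and Noxa, had log2 fold changes of 0.11 and -0.25 in the neocortex and 0.24 and 0.07 in the hippocampus, with intervals that all included 0.

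The 9 genes of the apoptosome and of release from mitochondria had a median log2 fold change of 0.12 in the neocortex and 0.09 in the hippocampus. Apaf1, the scaffold of the apoptosome, was at 14.7 ± 1.59 and 18.96 ± 2.197 CPM in control and cTKO neocortex (0.38, FDR 0.171). Vdac1, a channel of the outer mitochondrial membrane, was at 370 ± 14.5 and 419 ± 23.4 CPM in the hippocampus (0.18, FDR 0.241). Its groups did not overlap there, as was the case for 3.13% of all genes, and it was the gene called by DESeq2 (FDR 0.0477). Neither passed in edgeR's quasi-likelihood test.

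Among the 6 tested caspases, 0 passed in either region in edgeR's 3 tests or DESeq2, with 0 neocortical genes and 1 hippocampal gene at p under 0.05 before adjustment in each. The neocortical log2 fold change of Casp6, 0.44 (FDR 0.678), was 0.014 without cTKO library 5, one of those with embryonic markers. Xiap, a caspase inhibitor, led the inhibitors of apoptosis in both regions with FDRs of 0.742 and 0.780. Ngfr, the p75 neurotrophin receptor, led the death receptors. It was at 1.68 ± 0.497 and 3.15 ± 1.47 CPM in control and cTKO neocortex and at 2.13 ± 0.532 and 1.48 ± 0.163 CPM in the hippocampus, and the log2 fold changes, 0.93 (FDR 0.326) and -0.52 (FDR 0.351), differed in sign. Its interaction of region and genotype was -1.44, with an FDR of 0.494. For the interaction, 0 of 54 genes on the lists passed in edgeR's quasi-likelihood and likelihood ratio tests and in DESeq2, with 2 at p under 0.05 before adjustment in each. In the quasi-likelihood test, 532 of all 14192 genes had such a p. Besides Ngfr, the smallest p of a list belonged to Bnip3, Apaf1, Casp2, Cflar and Foxo3, between 0.0208 and 0.389 in edgeR's quasi-likelihood test before adjustment.

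**Figure D5:**
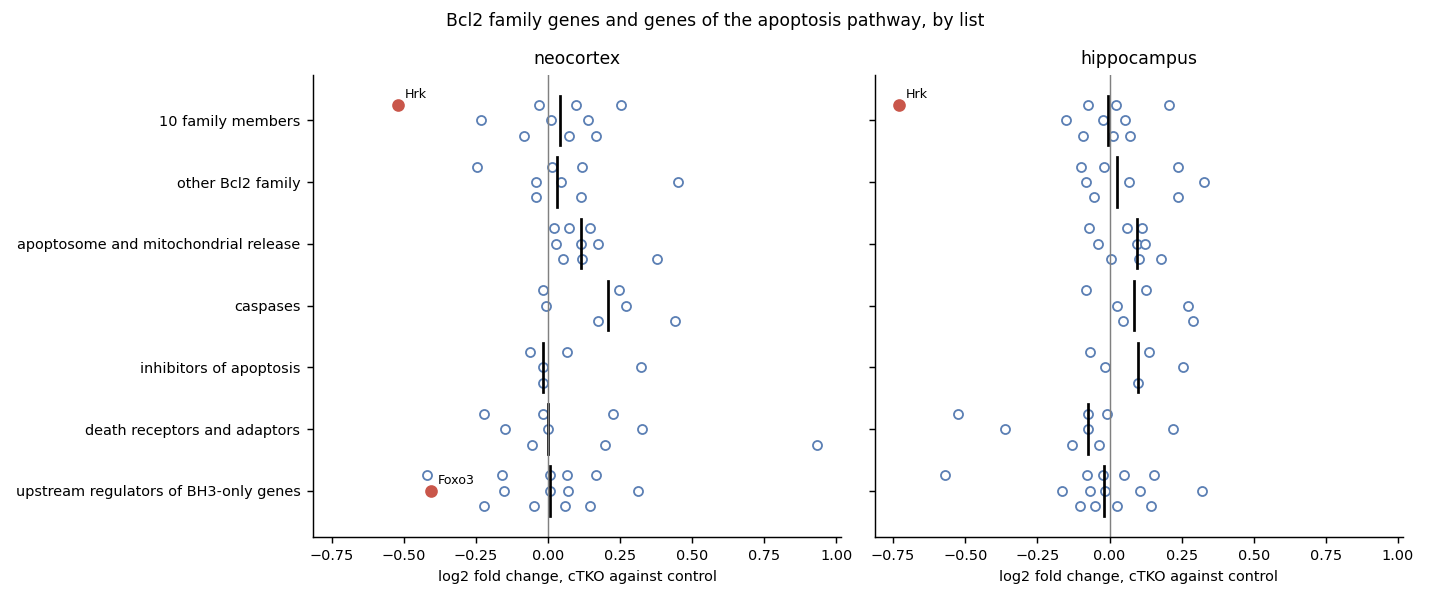
Log2 fold change in cTKO mice compared to controls for the 10 family members and the tested genes of 6 pathway lists, in each region, with 1 point a gene and a black line at the median of a list. Red points, with an FDR under 0.05, are Hrk in both regions and Foxo3 in the neocortex.

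Between regions, 25 of 50 tested genes on the lists passed in controls, where 59.1% of all genes did, 14 higher and 11 lower in the hippocampus. In cTKO mice 18 of 52 passed, where 41.3% of all genes did, 9 in each direction. Bok was higher in the hippocampus by 1.38 on the log2 scale in controls and 1.17 in cTKO mice. Bnip3l and Bad, which encode BH3 proteins, were higher by 0.37 and 0.52 in controls and by 0.36 and 0.38 in cTKO mice. Of the 8 tested genes of the other Bcl2 family, 4 were thus higher in controls, with Bnip3 at 0.18 as the other one, where 29.8% of all genes were higher. Pmaip1 was lower, at -0.86 (FDR 0.00360). In cTKO mice 3 of 8 were higher, where 20.2% of all genes were, and none was lower.

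Regulators upstream of BH3-only genes moved in both directions between regions, with 2 higher and 8 lower of 14 in controls, where 29.8% of all genes were higher and 29.2% lower. Jun was at 150.6 CPM in the hippocampus and 62.2 CPM in the neocortex of controls, with log2 fold changes of 1.27 in controls and 1.52 in cTKO mice. Foxo1 was higher by 0.86 in controls and 0.72 in cTKO mice, whereas Foxo3, at -0.84 and -0.60, E2f1, at -1.37 and -1.44, and Mapk9, which encodes JNK2, at -0.58 and -0.62, were lower in the hippocampus. These genes passed in the comparisons for which values are given.

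Vdac3 was higher in the hippocampus by 0.41 in controls and 0.38 in cTKO mice, Apaf1 by 0.59 and 0.33, and Vdac2 by 0.16 in controls. Apaf1 in cTKO mice missed the threshold without both libraries with embryonic markers (0.29, FDR 0.113) and in 7 of 10 fits without a single library (FDRs of up to 0.0781). Casp2 was lower by 0.50 on the log2 scale in controls and Casp6 higher by 0.60, though Casp6 missed the threshold in the fit of all 20 libraries (FDR 0.0848). In all, 0 of 6 caspases passed in cTKO mice in edgeR's 3 tests and DESeq2, and 0 had a p under 0.05 before adjustment. Cflar, an inhibitor of caspase-8, was higher by 0.37 and 0.48, and Birc6, a large inhibitor of apoptosis, was lower, at -0.64 and -0.65. Tnfrsf21, the death receptor DR6, was higher by 0.57 and 0.55. Tnfrsf1a was called in controls at 0.29 with an FDR of 0.0489 and missed the threshold with the replicate number as a block (FDR 0.0535), in the fit of all 20 libraries (FDR 0.149) and in 7 of 10 fits without a single library. Ngfr was called in cTKO mice at -1.10 (FDR 0.0112).

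Last, genes were ranked by how their levels followed those of Hrk over the 20 libraries, as a description, since the libraries share mice, groups and depth. After the group means were subtracted, the highest Pearson correlations among 13468 genes were those of Slc8a2 (r = 0.80, Spearman rho 0.79), Arsa (0.80, 0.86), Tom1l2 (0.77, 0.81), Prkcz (0.77, 0.86) and St6galnac6 (0.76, 0.76). Among the lowest were those of Stat6 (-0.86, -0.87) and Gypc (-0.86, -0.85). Without subtraction of group means, St6galnac6 (0.90, rho 0.88), Gid4 (0.90, 0.85), Dll1 (0.90, 0.87), Diap1 (0.90, 0.88) and Spata2 (0.89, 0.86) were highest. Within the family, the deviations of Bcl2 (-0.45) and Bcl2l1 (0.43) had the correlations with Hrk farthest from 0, and those of the other members lay between -0.36 and 0.31. Over the 18 libraries without embryonic markers, the correlations of deviations were 0.76 for Slc8a2, 0.78 for Arsa, 0.73 for Tom1l2, 0.68 for Prkcz and 0.66 for St6galnac6, of which Prkcz and St6galnac6 were then the 22nd and 28th from the highest. Stat6 was at -0.84 and Gypc at -0.86. Without subtraction of group means, the 5 genes named above had correlations between 0.86 and 0.90 over these libraries. Within the family, Bcl2 was then at -0.35 and Bcl2l1 at 0.19, and Bmf and Bcl2l11 changed sign, from -0.36 to 0.07 and from -0.29 to 0.09.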

How the data were processed

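RNA was taken from 20 samples, 5 for each of 4 groups (genotype and region by the labels). The authors mapped single-end reads of poly-A libraries to mm10 with STAR 2.5.4a, used HTSeq to count reads per gene, and deposited these raw counts by gene symbol. The annotation and strand setting are not given in the sources used here. All counts were whole numbers, 0 libraries were identical and 0 columns were left out.

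Genes that exceeded 1 CPM in 5 or more libraries of a fit were tested with edgeR 4.0.16 in R 4.3.3 (TMM, estimateDisp, glmQLFit, glmQLFTest), with Benjamini-Hochberg adjustment over all genes tested and a threshold of 0.05. Genotypes were compared within each region and regions within each genotype, over the libraries compared, and the interaction was fitted over all 20. Single genes were also compared by exact two-sided permutation tests of log2 CPM (prior count 2, 252 splits). A floor of 3 counts was used, and it covers counting error only. Exon lengths and overlaps are from GENCODE M21 (GRCm38), and promoter windows from RefSeq. DESeq2 1.42.0 (Wald test, no independent filtering), the exact and likelihood ratio tests, DESeq2's size factors, no filter, filterByExpr, 1 fit of all libraries, the replicate number as a block, an Xist covariate and fits without each single library were alternatives. The procedure was tested on simulated data. Figures were drawn with matplotlib in Python.

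The members and lists were chosen with earlier results of these data known. The text names all 10 members, the deleted genes, up to 3 called genes of each list with the smallest p or the first where none passed, and the genes most and least like Hrk by correlation. Bbc3, Pmaip1, the JNK genes, and values of a named gene in comparisons other than its own were added after their values were seen. Some results that the rule names are not reported here.

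Same-numbered libraries were checked for pairing by the correlation of their deviations from group means over genes. Control neocortex and control hippocampus passed, with 5 of 5 above 0.1 (0.115 to 0.348). The main tests between regions and of the interaction did not use this pairing, which entered only as the replicate block among the alternatives. The other pairs of groups did not pass this check (1 to 3 of 5 above 0.1). Between cTKO neocortex and cTKO hippocampus, the highest correlation was 0.593 for differently numbered libraries and 0.375 for same-numbered ones. Whether the libraries with embryonic markers came from the same mouse is not given by the labels.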

Additional observations from a re-analysis of the deposited data

Results flagged for a closer look

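Dixon's test at the 95% level was applied to log2 CPM in each of 40 groups (10 genes in 4 groups of 5 libraries), and 2 stood out, where chance gives about 1 in 20. Bcl2 was at 10.9 CPM in cTKO hippocampus library 2, and the other 4 libraries of the group were between 15.6 and 16.4 CPM, so that the gap to the nearest was 0.869 of the range. Bcl2l1 was at 123 CPM in control hippocampus library 4, while the next library was at 113 CPM, a gap of 0.793 of the range. Neither gene was called for genotype in the hippocampus with or without any single library.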

How the results depend on the processing

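Hrk kept its direction under every alternative. It also did so without every single library, which could hardly change the sign because its groups did not overlap. Its log2 fold change in the neocortex was -0.53 (FDR 0.106) in the fit of all 20 libraries and -0.53 (FDR 0.0655) with the replicate block, and it passed in the other 7 of 9 alternatives. In the hippocampus it was -0.72 (FDR 0.0554) with the block and passed in the other 8 of 9. With single libraries left out, it ranged from -0.60 to -0.47 in the neocortex, past the threshold in 3 of 10 fits, and from -0.81 to -0.65 in the hippocampus, in 4 of 10. The count of members called was then 0 to 1 in each region, as it was 0 in those alternatives, and 5 between regions in cTKO mice in the fit of all libraries. By the labels, same-numbered libraries of the genotypes share only a number, and whether they share more is not known. The block called 12 genes in the neocortex, with Foxo3 at -0.40 (FDR 0.0823). Genes called in the neocortex numbered 163 with the exact test, 167 with the likelihood ratio test, 221 with DESeq2 and 42 with no filter, and 7 to 133 with a library left out. In the hippocampus they numbered 258, 259 and 331 in these 3 tests, 189 in the fit of all libraries, and 15 to 149 with a library left out. For the interaction, they numbered 26 with the likelihood ratio test and DESeq2, 18 with the block, and 5 to 20 with a library left out. The causes were not tested.

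Values that changed sign were all far from the threshold. Bcl2l11 between genotypes was -0.0047 (no filter) and -0.0071 (block) in the neocortex and -0.097 (block) in the hippocampus, and its interaction was -0.085 (block) and -0.069 (both libraries with embryonic markers left out, chosen after seeing the data). Between regions in controls, Bcl2l2 was 0.0048 (no filter) and Mcl1 0.020 (no filter) and 0.0047 (fit of all libraries). Without single libraries, signs that changed had these ranges. Between genotypes in the neocortex, Bak1 ranged from -0.030 to 0.15, Bcl2l11 from -0.15 to 0.086 and Bmf from -0.14 to 0.41. In the hippocampus, Bcl2 ranged from -0.15 to 0.0041, Bax from -0.0075 to 0.11, Bak1 from -0.056 to 0.015, Bcl2l11 from -0.22 to 0.18, Bid from -0.010 to 0.071 and Bmf from -0.21 to 0.23. Between regions, Mcl1 ranged from -0.017 to 0.018 in controls and Bmf from -0.24 to 0.41 in cTKO mice. The interaction ranged from -0.10 to 0.024 for Bax, -0.18 to 0.0020 for Bak1, -0.23 to 0.17 for Bcl2l11, -0.20 to 0.0024 for Bid and -0.45 to 0.20 for Bmf. Bmf had 31 to 114 counts in a library.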
